A study of Mus musculus with 12 samples.

Results

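The imprinted Gnas complex on mouse chromosome 2 was examined for DNA methylation in 4 ES cell lines that share a nuclear genome but carry different mitochondrial DNA (mtDNA). The probes were those whose mm9 position on the array fell in chr2:174100000-174175000, which took 54 of the 88737 probes that were not controls. With probes no more than 1000 bp apart joined into a locus, they formed 3 of the 14580 loci on the array. These were a locus of 10 probes at Nesp (chr2:174110137-174111779), a locus of 24 probes in the Nespas and Gnasxl region (chr2:174122729-174126550), and a locus of 20 probes at exon 1A and the Gnas promoter (chr2:174152721-174156700), named here by position. All lines derived from CC9.3.1 ES cells, which came from a 129SvEv-Gpi1c(129S6) embryo, were depleted of mtDNA and were fused to cytoplasts that supplied the mtDNA. CC9mus carried Mus musculus mtDNA, as the parental cells did, CC9spretus carried that of Mus spretus, CC9dunni that of Mus terricolor and CC9pahari that of Mus pahari. Each line had 3 replicates and was kept off its mitomycin C-treated fibroblast feeders for 48 h before DNA was taken. Each haplotype was represented by 1 line, so the haplotype and the history of the line cannot be told apart. Nothing in the sources says that replicates were separate cultures, so p-values measure the spread between these samples, which may be technical.

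The Gnas complex uses several promoters that splice onto shared downstream exons, and its imprinting differs between them. Nesp, which encodes the secretory protein NESP55, is methylated on the paternal allele and expressed from the maternal allele. Nespas, an antisense transcript, and Gnasxl, which encodes the long G protein subunit XLαs, lie in a region methylated on the maternal allele in the egg, and paternal Nespas transcription is needed to silence Nesp. The exon 1A promoter is also methylated on the maternal allele in the egg, and its differential methylation governs tissue-specific imprinting of Gnas. The Gnas promoter itself, which drives the stimulatory G protein subunit Gsα that couples hormone receptors to cAMP, is normally unmethylated on both alleles. MeDIP, in which fragmented DNA is pulled down with an antibody to 5-methylcytosine, reads the alleles together.

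RefSeq promoter sequences on GRCm38.p6 were available for Gnas, matching 1 of the 2 genes by name, and none was listed for Nespas. They are shown because recovery by an antibody to 5-methylcytosine depends on the density of CpGs, and the 3 promoters differ in how many they hold. Each sequence runs from 250 bases before to 50 bases after the start on the plus strand, with CG dinucleotides in capitals.
Nesp, chr2:174284070-174284369: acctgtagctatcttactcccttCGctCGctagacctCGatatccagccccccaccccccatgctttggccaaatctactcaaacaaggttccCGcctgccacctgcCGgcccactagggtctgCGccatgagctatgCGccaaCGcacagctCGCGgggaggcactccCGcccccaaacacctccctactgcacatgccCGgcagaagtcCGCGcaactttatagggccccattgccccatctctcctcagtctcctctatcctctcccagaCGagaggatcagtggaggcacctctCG
Exon 1A, chr2:174327499-174327798: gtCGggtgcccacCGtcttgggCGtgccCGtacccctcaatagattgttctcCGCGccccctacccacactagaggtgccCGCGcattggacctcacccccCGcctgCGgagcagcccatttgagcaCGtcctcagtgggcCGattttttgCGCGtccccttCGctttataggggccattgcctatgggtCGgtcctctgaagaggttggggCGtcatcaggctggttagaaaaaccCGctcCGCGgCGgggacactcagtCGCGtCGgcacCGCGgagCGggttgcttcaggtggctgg
Gnas exon 1, chr2:174329756-174330055: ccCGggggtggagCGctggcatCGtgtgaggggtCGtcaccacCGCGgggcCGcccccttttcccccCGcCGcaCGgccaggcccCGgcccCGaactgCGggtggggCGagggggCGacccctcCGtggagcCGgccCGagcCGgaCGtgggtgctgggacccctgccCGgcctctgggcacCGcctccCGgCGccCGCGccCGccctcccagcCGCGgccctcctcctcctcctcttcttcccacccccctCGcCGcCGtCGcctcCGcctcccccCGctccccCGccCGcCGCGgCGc
The Nesp promoter held 16 CG, the exon 1A promoter 27 and the Gnas promoter 40 in 300 bases. Of all 32817 RefSeq promoters of this length, where the median was 7, the share with at least as many CG was 33.0% for Nesp, 15.5% for exon 1A and 3.92% for Gnas. On GRCm38, Nespas started 11116 bases beyond the Nesp start and ran against it, Gnasxl started 13539 bases beyond it, exon 1A 43429 bases beyond and Gnas exon 1 another 2257 bases on. On the array, in mm9, the Nespas-Gnasxl locus ran from 12592 to 16413 bases beyond the first Nesp probe, and the exon 1A-Gnas locus from 42584 to 46563 bases beyond it. The builds were not converted into each other, so individual probes were not placed against the starts, and whether each promoter is itself probed was not resolved.

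Values are log2 of immunoprecipitated DNA (IP, Cy5) over input DNA (Cy3), centred on the median of each array, so that 0 is the middle of the array and a higher value at a probe means more of its DNA recovered by the antibody. The spread of these ratios over the array differed between replicates of CC9mus, with an SD of 0.53 in replicate 1 against 1.85 and 2.01 in replicates 2 and 3, while it lay between 1.09 and 1.38 in the other 9 arrays. Main CC9mus differences are therefore also given without replicate 1. The arrays lay on 8 slides scanned in an earlier and a later period, and the later one held every CC9mus array and replicate 3 of each divergent line. Within it the CC9mus arrays had a scan day and 2 slides of their own. In every CC9mus comparison the line therefore cannot be told apart from its scan day and slides. The scan period block does not separate them. In the earlier period no slide held more than 1 line, and the CC9spretus arrays had scan days of their own. Replicates 1 and 2 of CC9mus, of CC9dunni and of CC9pahari shared a slide, as did replicates 3 of CC9spretus and CC9dunni. The main tests treated arrays as independent, while slide as a random block gave a correlation within slides of 0.35. Feature Extraction marked the IP signal of 46 to 54 of the 54 probes, and the input signal of 50 to 54, as well above background, depending on the array. On CC9mus replicate 2, 1 of the 54 spots was marked as an outlier and left out.

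The Nespas-Gnasxl locus, in the region of the antisense Nespas and of Gnasxl, had the widest separation of the lines among the 3 loci. In CC9spretus its log2 ratio was 2.64, 4.42 and 2.36 in replicates 1, 2 and 3. In CC9dunni it was 2.30, 2.32 and 0.59. In CC9mus it was 0.23, 0.42 and 1.74, and in CC9pahari −0.02, 0.07 and 0.28. All 3 CC9spretus arrays lay above the 9 others, which held for 28 loci of the array (0.192%), although CC9spretus replicate 3 cleared CC9dunni replicate 2 by only 0.04 and this was lost under each of the 5 ways of processing that altered the values. All 3 CC9pahari arrays lay below all 3 of CC9dunni, which held for 7.77% of loci but not with normexp, where the lowest CC9dunni array read 0.0656 and the highest CC9pahari array 0.3755. CC9dunni replicate 3, scanned in the later period on another slide, stood apart from the other 2 replicates of its line, which shared a slide. The line means were 3.14 ± 1.12 (SD, n = 3) in CC9spretus, 1.73 ± 0.99 in CC9dunni, 0.79 ± 0.82 in CC9mus and 0.11 ± 0.15 in CC9pahari. In this order, CC9dunni overlapped CC9mus, and CC9mus overlapped CC9pahari.

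**Figure D1:**
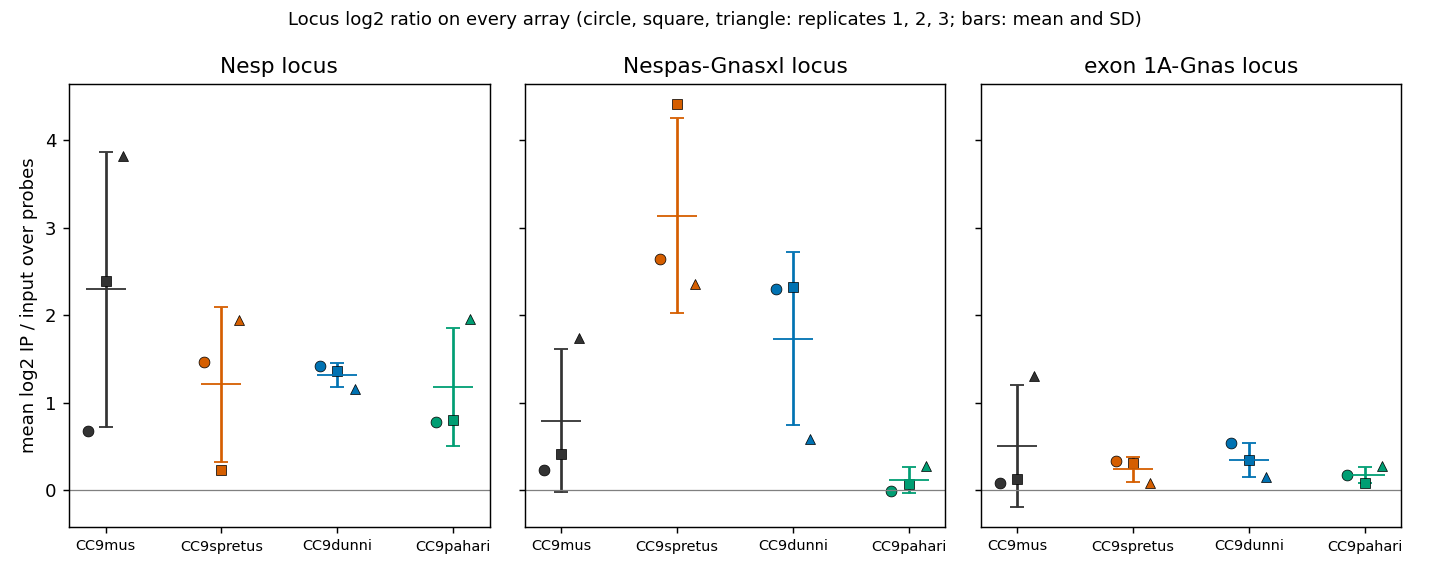
Mean log2 IP over input of the probes of each locus (vertical axis) on each of the 12 arrays, by line, with the line mean and SD (n = 3) as bars. At the Nespas-Gnasxl locus the CC9spretus arrays lie from 2.36 to 4.42 and the CC9pahari arrays from −0.02 to 0.28, while at the other loci the lines overlap.

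The tests across all loci did not call this separation. In limma over the 12 arrays, the moderated F-test for any difference among the 4 lines gave F = 9.04 and an adjusted p of 0.2995 at the Nespas-Gnasxl locus, which ranked 101 of 14580 by p. None of the loci passed (0%), and 2054 (14.1%) had an unadjusted p under 0.05. For the 3 divergent lines with scan period in the model, the locus had F = 14.5, an unadjusted p of 0.0013 (rank 7) and an adjusted p of 1.0, and again none of the loci passed (0%) while 257 (1.76%) had an unadjusted p under 0.05. With the CC9mus arrays left out of that fit, a choice made after the data were seen, the limma adjusted p was 0.0368 (F = 19.6) and 327 loci (2.24%) passed, with 20.5% at an unadjusted p under 0.05. With the replicate block in place of scan period the adjusted p was 0.0578 in limma. Over 17 settings, this one included, it ranged from 0.0206 to 0.329 and lay under 0.05 in 9, among them the deposited ratios and the wider gap, which left the ratios of the locus as they were. Probe by probe, the limma test without the CC9mus arrays gave a lowest adjusted p of 0.0646 among the 24 probes of the locus. Without CC9mus replicate 1, the F-test over 4 lines gave an adjusted p of 0.0187 at the locus, when 32.8% of all loci also passed.

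Pairwise, the CC9spretus mean at the Nespas-Gnasxl locus was 2.35 ± 0.62 (SE) above CC9mus on the log2 scale, with a limma adjusted p of 0.203, and 1.29 above it with normexp. The difference from CC9mus was 0.94 ± 0.62 in CC9dunni (adjusted p = 0.353 in limma) and −0.68 ± 0.62 in CC9pahari (adjusted p = 0.474 in limma). These moved to 0.66 and −0.96 without CC9mus replicate 1, and to 1.41 and −0.21 without CC9mus replicate 3. With scan period as a block they were 0.35 and −1.27. The CC9dunni difference was 1.51 without CC9dunni replicate 3 and 0.24 with normexp, and the CC9pahari difference was −0.38 with normexp. None of these contrasts called a locus (0%), with 2752 (18.9%), 3505 (24%) and 3717 (25.5%) loci at an unadjusted p under 0.05. Leaving out CC9mus replicate 1 moved the CC9spretus difference to 2.06 with an adjusted p of 0.0372 in limma, a setting in which 17.8% of loci were called higher and 18.2% lower. The lines with the highest and lowest mean, set against each other after the means were seen, differed by 3.03 ± 0.62 (SE, CC9spretus minus CC9pahari), a size exceeded by 3 of the 14580 loci. The limma adjusted p of that difference was 1.0 (rank 2), with no locus called (0%) and 1.28% at an unadjusted p under 0.05. CC9spretus against the mean of the other 3 lines gave 2.26 ± 0.50 (SE), also with an adjusted p of 1.0 in limma (rank 2), when 1 locus was called higher (0.00686%), none lower, and 1.45% had an unadjusted p under 0.05. With normexp these 2 differences were 1.67 and 1.33.

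Within each scan period the divergent lines stood in the same order. Replicates 1 and 2 of the divergent lines were all scanned in the earlier period. Their mean at the Nespas-Gnasxl locus was 3.53 in CC9spretus, 2.31 in CC9dunni and 0.03 in CC9pahari. CC9spretus was scanned there on days 1 and 2 and the other lines on day 3, and no slide held more than 1 line. In that period line cannot be told apart from slide, nor CC9spretus from its scan days. In the later period, replicate 3 read 2.36 in CC9spretus, 0.59 in CC9dunni and 0.28 in CC9pahari, and the mean of the 3 CC9mus arrays was 0.79. By line mean, CC9spretus was thus the highest in each period and CC9pahari the lowest. In the later one each divergent line had n = 1 array, and these arrays shared a scan day. CC9mus replicate 1, at 0.23, lay below the CC9pahari array there. The input signal at this locus, relative to the mean of the 12 arrays, lay between −0.12 and 0.19 on the log2 scale. The ratios, not set relative to their mean of 1.45, ran from −0.02 to 4.42, so the ranges have different reference points. Copy number was not tested.

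**Figure D2:**
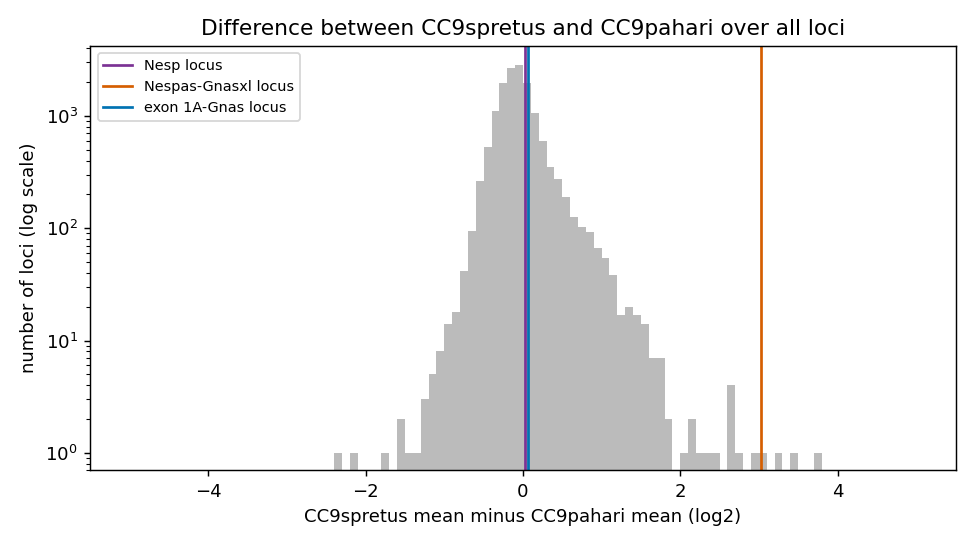
Number of loci (vertical axis, log scale) by the CC9spretus mean minus the CC9pahari mean (horizontal axis, log2), with the 3 Gnas complex loci as vertical lines. The Nesp and exon 1A-Gnas loci lie near 0, at 0.03 and 0.07, and the Nespas-Gnasxl locus lies at 3.03.

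Within the Nespas-Gnasxl locus the difference ran along its whole length. CC9spretus had the highest mean of the 4 lines at all 24 probes, from 2.56 to 3.80, and CC9pahari had the lowest at 21 of them, with means from −0.97 to 1.86. CC9dunni means lay from 0.61 to 2.36 and CC9mus means from −0.64 to 2.24. The 3 CC9spretus arrays lay above the 3 CC9pahari arrays at all 24 probes, against 4.64% of probes over the array, and above all 9 others at 7 probes, against 0.211%. The CC9pahari arrays lay below all 3 of CC9dunni at 14 probes, against 7.67%. Adjacent probes of a locus can report the same DNA fragments, which were 200 to 1000 bp long, so the 24 are not independent. The locus divided into a first stretch of 3 probes (chr2:174122729-174123051) and a second of 21 probes (chr2:174124027-174126550). In the first, CC9spretus read 1.93, 3.51 and 2.68, and the highest of the other arrays, CC9dunni replicate 1, lay 0.83 below the lowest of these. At 2 of the 3 probes of this stretch, the IP signal was well above background on only 1 CC9mus and 1 CC9pahari array, and at one of them the input signal was on 9 of 12 arrays. In the second, CC9dunni replicates 1 and 2 read 2.47 and 2.49 and overlapped CC9spretus, whose lowest array read 2.31.

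The named probes of the locus show both ends of the range. The lowest mean over 12 arrays, 0.56, was at chr2:174122995-174123051, where CC9spretus averaged 2.71, CC9dunni 0.78, CC9mus −0.64 and CC9pahari −0.62, with IP well above background on 1 of 3 arrays in each of the last 2 lines. The highest, 2.55, was at chr2:174126242-174126301, but there the IP signal was not well above background on any CC9pahari array and the input signal was on only 5 of 12 arrays. Over the whole locus, CC9mus minus the mean of the other lines was −0.87 ± 0.50 (SE), with a limma adjusted p of 0.245. It ranged from −1.34 to −0.28 over 23 alternative settings. The largest CC9mus difference of a single probe was at chr2:174124586-174124630. CC9mus read 0.08, −1.21 and −0.80 there, CC9spretus 2.92, 5.38 and 3.02, CC9dunni 2.73, 2.72 and 0.69, and CC9pahari −0.45, −0.80 and −0.12. At this probe CC9mus minus the mean of the other lines was −2.43 ± 0.57 (SE), while its arrays overlapped those of CC9pahari. The IP signal there was well above background on only 1 CC9mus and 1 CC9pahari array. This was the 1 probe of 54 called in limma for CC9mus against the other lines (adjusted p = 0.0436). Of all probes, 1.81% were called lower and 2.76% higher. None of the 54 was called lower with normexp (0.00789% of all probes), equal spread (6.39%), or slide or scan period as a block (0% each). The adjusted p of this probe ranged from 0.0074 to 0.131 as each of the 12 arrays was left out, and was 0.0074 without CC9mus replicate 1. When any 1 of the remaining 11 arrays was dropped, 0 of the 54 probes were called, and at most 0.132% of all probes were called in either direction. The next largest difference, −2.26 ± 0.72 at chr2:174124098-174124142, had a limma adjusted p of 0.0754.

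**Figure D3:**
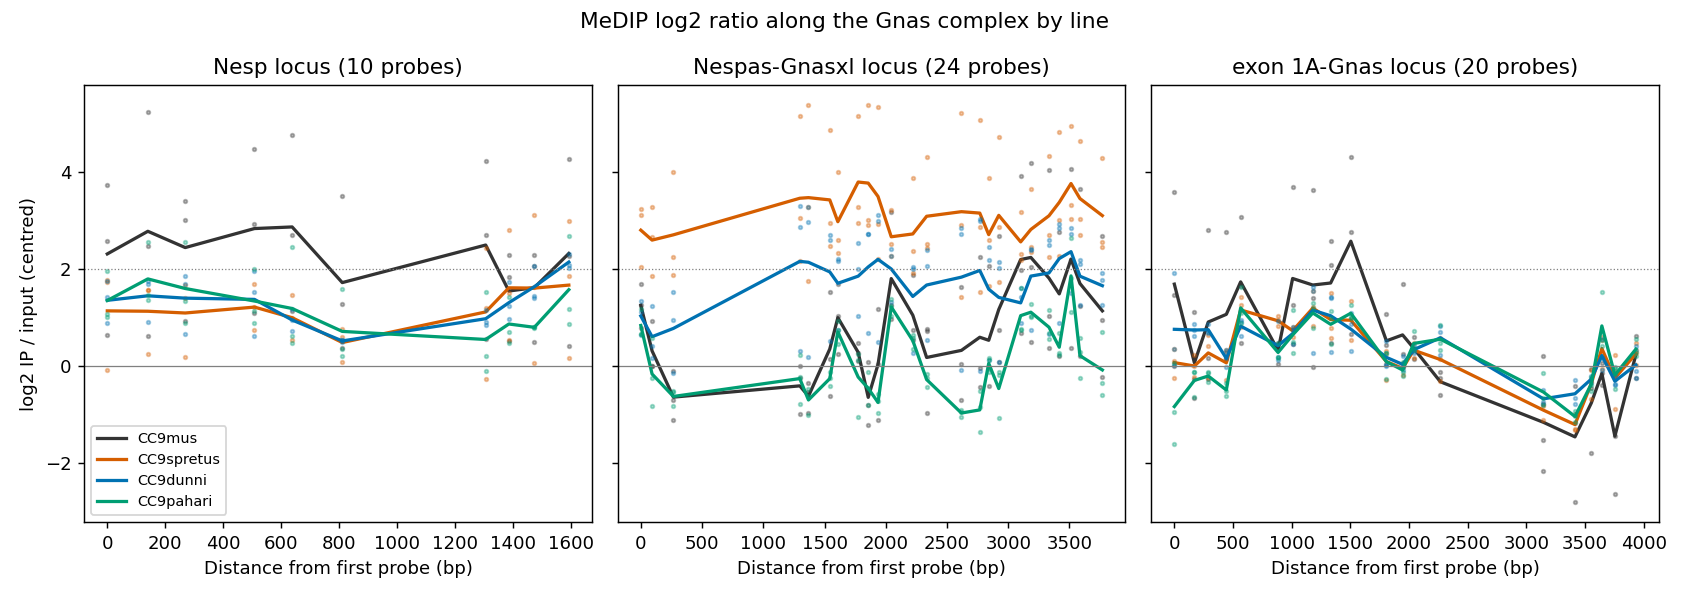
Log2 IP over input (vertical axis) of every probe by its distance in bp from the first probe of each locus, with line means as lines and single arrays as points. The CC9spretus mean, but not each of its arrays, stays above 2 along the whole Nespas-Gnasxl locus. CC9mus has the highest mean at 8 of 10 Nesp probes. The last 6 probes of the exon 1A-Gnas locus average below 0 on all 12 arrays.

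At the Nesp locus, in the region of the NESP55 promoter, the means were above 0 on every array, and the highest and lowest values belonged to single replicates. CC9mus read 0.68, 2.39 and 3.82 in replicates 1, 2 and 3. CC9spretus read 1.46, 0.22 and 1.94, CC9dunni 1.41, 1.37 and 1.16, and CC9pahari 0.78, 0.80 and 1.96. All 4 lines overlapped. The line means were 2.30 ± 1.57 (SD, n = 3) in CC9mus, 1.21 ± 0.89 in CC9spretus, 1.31 ± 0.14 in CC9dunni and 1.18 ± 0.67 in CC9pahari. CC9mus minus the mean of the other lines was 1.06 ± 0.57 (SE) with a limma adjusted p of 0.211. No locus was called for this contrast in either direction (0%), and 4706 (32.3%) had an unadjusted p under 0.05. Without CC9mus replicate 1 the difference was 1.87 with an adjusted p of 0.0089 in limma, when 22.6% of all loci were called higher and 27.8% lower. It was 0.30 without CC9mus replicate 3 and 0.61 with scan period as a block. When the arrays were scaled to equal spread it was 0.21, and CC9dunni had the highest mean (1.51 against 1.49 in CC9mus). With equal spread and scan period as a block together it was −0.44.

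At Nesp the means of the divergent lines lay close together. The F-test over those lines gave F = 0.02, with a limma adjusted p of 1.0, and CC9spretus and CC9pahari differed by 0.03 ± 0.69 (SE). Against CC9mus the differences were −1.09 ± 0.69 (SE) in CC9spretus, −0.98 ± 0.69 in CC9dunni and −1.12 ± 0.69 in CC9pahari. Their limma adjusted p-values were 0.390, 0.383 and 0.307. Without CC9mus replicate 1 these p-values were 0.0237, 0.0262 and 0.0181, when 18.2%, 19.9% and 19.8% of all loci were called lower. Along the locus, the CC9mus mean was the highest at 8 of 10 probes, where it ran from 1.72 to 2.87. The highest mean over 12 arrays, 1.93, was at chr2:174111730-174111779 and the lowest, 0.86, at chr2:174110948-174110999. The largest CC9mus differences, 1.82 ± 0.63 (SE) at chr2:174110775-174110819 and 1.62 ± 0.70 at chr2:174111443-174111493, had limma adjusted p-values of 0.0918 and 0.152.

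At the exon 1A-Gnas locus, in the region of the exon 1A and Gsα promoters, the means over all 20 probes differed little between lines. But they averaged a stretch where CC9mus had the highest mean, which rested on its replicate 3, and one where it had the lowest. CC9mus read 0.08, 0.13 and 1.31, CC9spretus 0.34, 0.31 and 0.08, CC9dunni 0.54, 0.35 and 0.15, and CC9pahari 0.17, 0.08 and 0.27. CC9mus replicate 3 was the only array above 1, and the lines overlapped otherwise. CC9mus minus the other lines was 0.25 ± 0.24 (SE), with a limma adjusted p of 0.478. It was 0.46 without CC9mus replicate 1 and turned to −0.15 without replicate 3. The range of the 4 line means, 0.33, was smaller than at 77.8% of loci, while within its stretches the range was 0.74 and 0.63.

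The locus consists of 2 stretches. Its first 14 probes (chr2:174152721-174155044) averaged from 0.16 to 2.20 on the 12 arrays, and its last 6 (chr2:174155866-174156700) from −1.46 to −0.03. The first stretch was above 0, the median of each array, and the last below 0 on every array, which compares different probes and does not give their relative methylation. CC9mus read 0.16, 0.81 and 2.20 in the first and −0.11, −1.46 and −0.79 in the last. Its replicate 1 thus lay closer to 0 in both than replicates 2 and 3. In the first, only replicate 3 lay above all arrays of the other lines, and replicate 2 lay below CC9dunni replicate 1 (0.82). In the last, replicates 2 and 3 lay below all of those arrays, whose lowest was −0.58 in CC9spretus replicate 3. The means of the other lines lay from 0.31 to 0.60 in the first and from −0.35 to −0.16 in the last. CC9mus minus the other lines was 0.59 ± 0.33 (SE) in the first stretch, with a limma adjusted p of 0.234 over all loci split at 500 bp. In the last it was −0.53 ± 0.24, with a limma adjusted p of 0.149. The stretches were fitted with all 12 arrays only, so how far single arrays carry these differences was not tested. The highest probe, at chr2:174154225-174154269, averaged 1.35 over 12 arrays and the lowest, at chr2:174156135-174156179, averaged −1.07. CC9mus minus the other lines was 1.64 ± 0.56 (SE) at this highest probe (limma adjusted p = 0.0892) and 1.69 ± 0.65 at chr2:174152721-174152776 (limma adjusted p = 0.115), the largest in the locus. At the latter the input signal was well above background on 8 of 12 arrays, and the IP signal on only 1 CC9dunni and 1 CC9pahari array.

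The difference between the log2 ratios of the Nespas-Gnasxl and Nesp loci, whose regions are normally methylated on opposite parental alleles, was set side by side for the arrays. The Nespas-Gnasxl minus Nesp difference was 1.18, 4.19 and 0.42 in CC9spretus and −0.45, −1.97 and −2.09 in CC9mus. In CC9dunni it was 0.88, 0.95 and −0.57, and in CC9pahari −0.80, −0.73 and −1.68. The CC9spretus arrays lay above all arrays of CC9mus and CC9pahari and overlapped those of CC9dunni. Probes differ in recovery, so the sign of such a difference does not give relative methylation, and it was compared only between arrays. CC9spretus replicate 2 had both the highest value of the 12 arrays at the Nespas-Gnasxl locus and the lowest at Nesp.

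**Figure D4:**
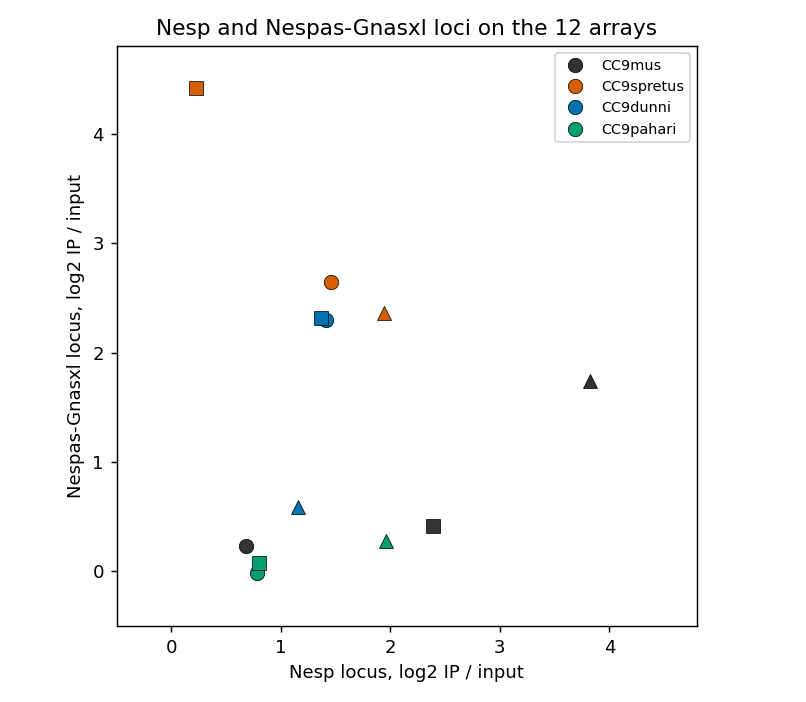
Log2 IP over input at the Nespas-Gnasxl locus (vertical axis) against the Nesp locus (horizontal axis) on the 12 arrays, with circle, square and triangle for replicates 1, 2 and 3. CC9spretus replicate 2 lies highest on the vertical axis, at 4.42, and lowest on the horizontal axis, at 0.22.

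Probes were counted by a mean log2 ratio to input above 2 in a line, which borrows the size of the cutoff that the study set between samples, without its Z-score filter. In CC9mus 11 of the 54 probes passed, where 9.39% of all probes did. In CC9spretus 24 passed, against 5.16% of all probes, and all 24 were the probes of the Nespas-Gnasxl locus. In CC9dunni 8 passed (5.32% of all probes), 7 of them at that locus. In CC9pahari 0 passed, against 4.71% of all probes. Of the 54 probes, 16 were above 2 on all 3 CC9spretus arrays (3.86% of all probes), 1 on all 3 CC9dunni arrays (4.06%) and 0 on all 3 CC9mus arrays (0.689%). In CC9mus, 7 of the 11 lay at Nesp. Single arrays decided the counts in 2 lines, CC9mus and CC9dunni. In CC9mus 23 passed without replicate 1, when 17.7% of all probes did, and 2 without replicate 3, when 4.28% did. In CC9dunni 20 passed without replicate 3 (5.26% of all probes), and 2 without replicate 1 (5.4%) or replicate 2 (5.43%). With normexp background correction 10 probes passed in CC9spretus (2.77% of all probes), 0 in CC9mus (2.32%) and 0 in CC9dunni (2.13%). No probe averaged below −2 in any line, where 3.25%, 1.08%, 0.586% and 0.124% of all probes did in CC9mus, CC9spretus, CC9dunni and CC9pahari.

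Against the rest of the array, the Nespas-Gnasxl locus ranked high in CC9spretus, where 4.49% of loci had a higher mean, and near the middle in CC9pahari, where 42.1% did, as ranks of recovery. The shares were 8.21% in CC9dunni and 25.8% in CC9mus. At Nesp they lay between 6.73% in CC9mus and 10.0% in CC9spretus. The range of the 4 line means at the Nespas-Gnasxl locus, 3.03, was exceeded by 15 of 14580 loci, where the median was 0.56. Its SD between the CC9dunni replicates was exceeded by 1.01% of loci, and that between the CC9spretus replicates by 2.04%.

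Flanking loci had a narrower range of line means than the Nespas-Gnasxl locus, while the ranges at Nesp and exon 1A-Gnas lay within theirs. Within 500 kb on either side of the window lay 8 loci of 37 probes, the nearest 163331 bp before the Nesp locus and 84549 bp after the exon 1A-Gnas locus. The range of their line means was 0.09 to 1.20, with a median of 0.48, and at none of the 8 did the CC9spretus arrays all lie above the others. CC9spretus minus CC9pahari ranged from −0.30 to 1.07 among them. Over the 12 arrays, the loci of at least 3 probes whose values followed the Nespas-Gnasxl locus most closely were chr19:46383363-46383883 (Pearson r = 0.87) and chr7:135831552-135832148 (r = 0.82). For Nesp they were chr14:58318402-58318874 (r = 0.99) and chr17:47605282-47605837 (r = 0.98), and for exon 1A-Gnas chr9:110776266-110776581 (r = 0.96) and chr7:133679376-133679791 (r = 0.95). These are descriptions over n = 12 arrays that share the same centring and array-wide spread, chosen as the highest among 13460 loci. At the chr19 locus the line means ran only from 0.27 in CC9pahari to 0.92 in CC9spretus. At chr7:135831552-135832148 they were 2.94 in CC9spretus, 1.87 in CC9mus, 1.32 in CC9dunni and −0.03 in CC9pahari.

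**Figure D5:**
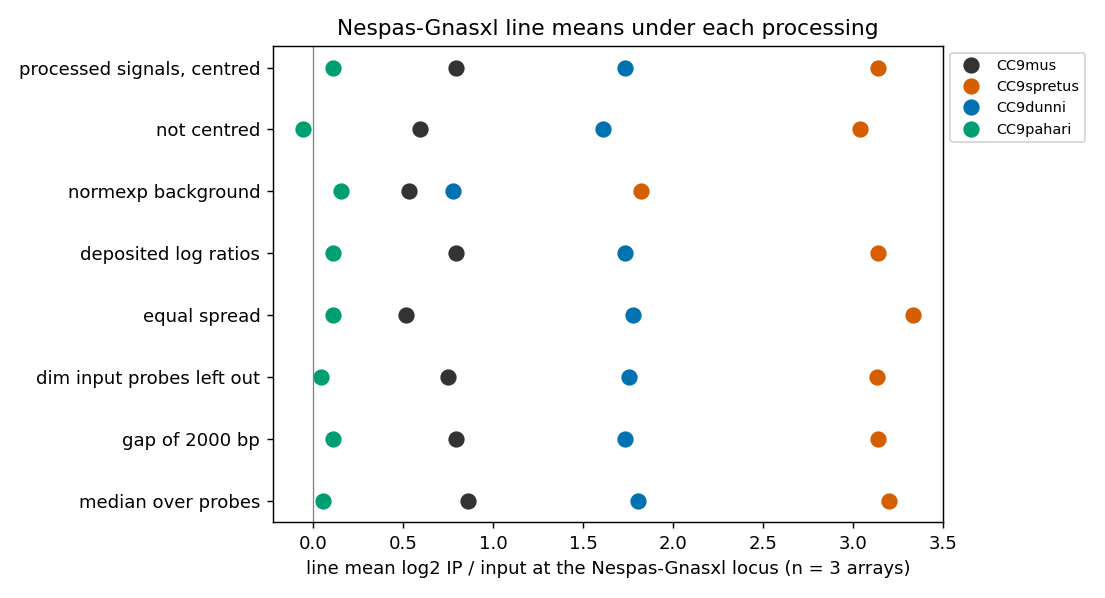
Line means of log2 IP over input at the Nespas-Gnasxl locus (horizontal axis, n = 3 arrays a line) under 8 ways of processing the signals (vertical axis), of which the deposited ratios and the gap of 2000 bp return the values of the first. CC9spretus stays highest and CC9pahari lowest in each, and the CC9spretus mean is 1.82 with normexp background correction.

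The order of the line means at the Nespas-Gnasxl locus, CC9spretus, CC9dunni, CC9mus and CC9pahari, held under each of the 5 other ways of processing that altered the values, which were no centring, normexp, equal spread, leaving out dim input probes and the median over probes. The deposited ratios and the wider gap returned the same values and are no further check. The CC9spretus arrays lay above all CC9pahari arrays, as at 4.85% of loci in the main processing, under all 5. The separation of CC9spretus from all 9 other arrays was lost under all 5, where an array of CC9dunni or CC9mus passed the lowest CC9spretus array.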

How the data were processed

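DNA methylation was measured in 12 samples on Agilent 2-colour mouse CpG island arrays, with IP DNA (120 to 250 ng) in Cy5 and 400 ng of input DNA in Cy3. Per the file headers, Agilent Feature Extraction 11.0.1.1 (11.0.1.0 in the submitters' processing notes) was used by the authors to subtract background and to scale the dyes linearly, and the deposited signals are in units of intensity. The deposited ratios are log10 of IP over input without centring, and the table of the whole series held the same values.

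Log2(IP/input) was computed from the processed intensities, spots marked as outliers were left out, and the median of an array was subtracted from its values. Positions were on mm9, per the file headers. The genome at hand was GRCm38 and the files hold no probe sequences, so the list of other imprinted genes was not analysed here. Locus values were means over probes. Tests used limma 3.58.1 (R 4.3.3, lmFit and eBayes) on all 14580 loci or 88737 probes, with Benjamini-Hochberg adjustment over all of them. The fit was first tested on simulated data. The main fit had 4 line means over 12 arrays and 8 residual degrees of freedom. Fits with a scan period or replicate term, or with arrays left out, had fewer. The number of arrays limits the precision. Tables and figures were made in Python 3.11.15, numpy 2.4.6, pandas 2.3.3 and matplotlib 3.10.9.

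Named probes were, per locus, those with the highest and lowest mean over 12 arrays and the 2 with the largest absolute CC9mus difference. The window, the loci and the tests were chosen with earlier results of these data known. Contrasts of CC9spretus with the other lines or with CC9pahari, the test without the CC9mus arrays, its replicate block and the values within scan periods were added after the values were seen. Alternatives covered centring, normexp background correction with an offset of 50, the deposited ratios, equal spread of the arrays, input-dim probes, locus gaps of 500 and 2000 bp, medians, blocks for replicate, slide and scan period, and leaving out each array. As a check of pairing, deviations from line means over all loci correlated at r over 0.1 in all 9 same-numbered pairs of the divergent lines (0.10 to 0.65), whose replicates 3 share a scan period, and in 3 of 9 pairs with CC9mus (−0.40 to 0.20), against 11 of 36 pairs of different number. All 6 pairs of different number among replicates 1 and 2 of the divergent lines, scanned in the earlier period, were also over 0.1 (0.20 to 0.49), so pairing by number was not shown apart from scan period, and the replicate block is given as an alternative.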

Additional observations from a re-analysis of the deposited data

How the results depend on the processing

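Of 681 values recomputed under another setting, 617 kept their direction and their side of the threshold (or moved by less than the replicate spread), 37 moved, 11 reversed, 8 gained and 8 lost a call. The deposited ratios and the 2000 bp gap returned the same ratios at these loci, so they count among those kept by construction. Causes were not tested. At the Nespas-Gnasxl locus, the adjusted p over 4 lines was 0.0489 with scan period as a block and equal spread, and ranged from 0.0187 to 0.652 as each array was left out, being lowest without CC9mus replicate 1. Over the 3 divergent lines it was 0.0368 with the CC9mus arrays left out of the fit. Against CC9mus there, the difference ranged from 1.71 to 2.82 in CC9spretus, 0.65 to 1.51 in CC9dunni and −0.96 to −0.21 in CC9pahari as each array was left out. At Nesp, leaving out arrays gave 0.30 to 1.87 for CC9mus minus the others, −1.90 to −0.32 for CC9spretus, −1.79 to −0.22 for CC9dunni and −1.93 to −0.35 for CC9pahari against CC9mus. At exon 1A-Gnas these were −0.15 to 0.46, −0.48 to 0.14, −0.37 to 0.24 and −0.54 to 0.0706, and all 4 turned without CC9mus replicate 3. With equal spread, CC9dunni minus CC9mus turned to 0.0205 at Nesp and 0.0701 at exon 1A-Gnas. With scan period as a block as well, Nesp turned to −0.44 for CC9mus minus the others and to 0.30, 0.67 and 0.35 for CC9spretus, CC9dunni and CC9pahari against CC9mus, and exon 1A-Gnas to 0.0071 for CC9dunni.

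The probes called for CC9mus against the others numbered 0 with equal spread, when 5.67% of all probes were called higher and 6.39% lower, 0 with normexp (0.0192% and 0.00789%), and 0 with slide as a random block or scan period as a block, when 0% were called, 3 with scan period and equal spread (5.61% of all probes called higher and 15.8% lower), and 0 to 22 as arrays were left out, the 22 without CC9mus replicate 1, when 19.8% of all probes were called higher and 20.6% lower. Past the threshold were 0 probes in CC9mus and CC9dunni and 10 in CC9spretus with normexp, 1 in CC9mus with equal spread, and, leaving out arrays, 2 to 23 in CC9mus, 2 to 20 in CC9dunni and 0 to 1 in CC9pahari. The line means moved in CC9pahari without centring, to −0.0546 at Nespas-Gnasxl and 0.0068 at exon 1A-Gnas. With normexp they moved to 0.41 in CC9dunni at Nesp, 1.82 in CC9spretus at Nespas-Gnasxl, and −0.0048, −0.0209 and 0.000452 in CC9spretus, CC9dunni and CC9pahari at exon 1A-Gnas, and with equal spread to 1.51 in CC9dunni at Nesp.

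With the replicate block, the adjusted p over the divergent lines with the CC9mus arrays left out was 0.0578 (154 loci called in place of 327), and that over 4 lines at Nespas-Gnasxl was 0.212. CC9mus against the others then called 3 of the 54 probes, all lower, in place of 1 (5.01% of all probes higher and 3.41% lower), and over all loci 778 higher and 382 lower in place of 0 and 0, none of them in the Gnas complex. Over all loci that contrast also called 958 higher and 1053 lower with equal spread, and 0 higher and 9 lower with scan period as a block. Probes near the background limit what the array can resolve, most of all in CC9pahari, where 2 of the 54 probes had no array with IP well above it.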
